A study of Mus musculus with 8 samples.

Results

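The genes described here encode the enzymes of sterol and fatty acid synthesis, the SREBP system that controls them and 1 sterol carrier. They were chosen by symbol: 32 named genes, all of which were present among the 26848 genes of the deposited table, divided into 18 mevalonate and sterol enzymes, 8 fatty acid enzymes and 6 regulators and carriers. They were measured in RAW264.7 cells, an established mouse macrophage-like line, grown on the implant polymer polyetheretherketone, or PEEK. One group of 4 libraries came from cells on nano/microstructured PEEK and the other group of 4 from cells on smooth PEEK. Both groups were the same line, the labels name no other treatment and no culture time, and a single cell line stands in for macrophages here. The groups are called structured and smooth below, with libraries 1 to 4 in each, numbered as in the library names.

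Cells build cholesterol from acetyl-CoA through the mevalonate pathway, which yields farnesyl diphosphate, and then through squalene and lanosterol. Fatty acids are built from the same acetyl-CoA by acetyl-CoA carboxylase and fatty acid synthase and are then elongated and desaturated. Both branches are targets of the SREBP transcription factors, which Scap escorts out of the endoplasmic reticulum when sterols are low and which the Insig proteins hold back when sterols are plentiful; SREBP-2, the product of Srebf2, is best known for the sterol genes and SREBP-1c, a product of Srebf1, for the fatty acid genes.

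The promoters were examined first, because SREBP proteins act together with NF-Y and Sp1 at their target promoters. RefSeq promoter sequence (GRCm38.p6) was found for 25 of the 32 genes, as 33 promoters, and the 250 bases before each start were searched on both strands for 4 motifs. Promoters were not found for Fads1, Scd1, Scd2, Fdft1, Stard4, Fdps and Sqle. The 6 stretches shown are printed as in the reference, 5′ to 3′ toward the gene. They are those of Hmgcs1, of 3 sterol pathway genes that rose, and of Fasn and Acly, the fatty acid enzymes of highest and second highest CPM. Hmgcs1 had the only promoter that matched TCACNCCAC, the sterol regulatory element as searched here. Capitals mark the motif matches, with ATTGG and CCGCCC standing for CCAAT and GGGCGG on the other strand. Hmgcs1 is at chr13:119690101-119690350 on the plus strand. The others lie on the minus strand, Acat2 at chr17:12960748-12960975, Cyp51 at chr5:4104747-4104947, Ebp at chrX:8193513-8193762, Fasn at chr11:120824548-120824797 and Acly at chr11:100528001-100528250. Those of Acat2 and Cyp51 end at 228 and 201 bases, where the gene begins in the deposited table.
Hmgcs1: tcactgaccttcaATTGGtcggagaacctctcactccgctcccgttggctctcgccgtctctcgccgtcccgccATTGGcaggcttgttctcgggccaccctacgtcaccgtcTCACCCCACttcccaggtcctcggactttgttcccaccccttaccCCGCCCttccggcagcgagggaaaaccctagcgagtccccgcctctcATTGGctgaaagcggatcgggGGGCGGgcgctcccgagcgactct
Acat2: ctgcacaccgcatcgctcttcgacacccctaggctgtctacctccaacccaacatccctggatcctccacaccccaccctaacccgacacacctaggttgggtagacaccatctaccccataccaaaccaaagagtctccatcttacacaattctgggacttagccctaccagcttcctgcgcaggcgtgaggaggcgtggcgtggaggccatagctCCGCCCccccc
Cyp51: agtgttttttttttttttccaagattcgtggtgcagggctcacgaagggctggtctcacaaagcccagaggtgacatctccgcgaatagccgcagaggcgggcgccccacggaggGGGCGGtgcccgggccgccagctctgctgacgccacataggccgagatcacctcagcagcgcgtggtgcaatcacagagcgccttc
Ebp: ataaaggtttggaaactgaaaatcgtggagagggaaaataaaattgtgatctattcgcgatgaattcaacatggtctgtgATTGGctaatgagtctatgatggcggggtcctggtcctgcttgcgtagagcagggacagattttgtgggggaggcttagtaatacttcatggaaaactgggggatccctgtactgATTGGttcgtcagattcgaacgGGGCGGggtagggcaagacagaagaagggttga
Fasn: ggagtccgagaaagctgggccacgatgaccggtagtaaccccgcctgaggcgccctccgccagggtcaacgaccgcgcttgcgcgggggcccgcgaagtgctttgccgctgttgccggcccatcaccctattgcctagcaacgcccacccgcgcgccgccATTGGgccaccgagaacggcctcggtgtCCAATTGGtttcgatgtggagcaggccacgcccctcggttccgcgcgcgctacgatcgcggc
Acly: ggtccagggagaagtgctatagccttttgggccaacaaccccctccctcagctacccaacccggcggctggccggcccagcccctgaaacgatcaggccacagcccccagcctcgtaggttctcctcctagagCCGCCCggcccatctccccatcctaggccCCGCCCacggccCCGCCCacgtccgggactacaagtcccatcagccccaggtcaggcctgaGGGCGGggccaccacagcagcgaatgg

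The sterol regulatory element was searched as TCACNCCAC and matched the promoter of Hmgcs1 alone, at −137 to −129 from the start, against 1.05% of all 32851 mouse promoters. Its E-box form, TCACNTGA, matched 1 promoter, of Insig2, against 3.45% of all. The NF-Y box CCAAT was found in 14 of the 18 promoters of the 15 sterol pathway genes (14 genes), 1 of the 5 promoters of 5 fatty acid genes (Fasn) and 5 of the 10 promoters of 5 regulators (4 genes), against 33.8% of all promoters. The Sp1 box GGGCGG was found in 15 of the 18 sterol promoters (14 genes), 2 of the 5 fatty acid promoters (Acly and Fads2) and 7 of the 10 regulator promoters (5 genes), against 32.7% of all promoters. Acat2 was the sterol gene without a CCAAT match, and the match of Cyp51 lies within its gene as the table gives it, outside the stretch printed. A pair of the CCAAT matches of Fasn overlap on opposite strands. These are matches of letters, and binding was not measured. Elements that differ from the letters searched were not counted.

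Library totals ran from 64479829 to 73098735 count units, and low values piled up at multiples of 4 (8018 values of 4, against 3344 of 3 and 2180 of 5), so a unit is not plainly 1 fragment. All 32 genes were among the 16006 tested with edgeR's quasi-likelihood test, in which 161 genes rose and 440 fell on structured PEEK at a Benjamini-Hochberg adjusted p under 0.05 (212 and 218 after the trend on GC content and transcript length was removed). The macrophage markers were all expressed, with a summed level of 6150 to 6310 CPM (counts scaled to a common library size with TMM factors) in structured libraries and 5820 to 6230 CPM in smooth libraries. Markers of other cell types were also detected. The 10 hepatocyte markers summed to 114, 110, 213 and 381 CPM in structured libraries 1 to 4 and to 263, 81.1, 70.8 and 56.3 CPM in smooth libraries 1 to 4, so structured 3, structured 4 and smooth 1 were highest. The 9 neutrophil markers summed to 14.8, 51.2, 50.2 and 53.9 CPM in structured libraries and to at most 1.92 CPM in smooth libraries. All 5 that could be tested rose (S100a8, S100a9, Ngp, Mmp8 and Lcn2). Camp, Ltf, Elane and Mpo were too low to be tested, averaging at most 0.116 CPM in either group. The 8 skeletal muscle markers summed to 15.2 to 21 CPM in structured libraries and 17.9 to 57.1 CPM in smooth libraries, and 2 of them fell. Most of the structured sums was Tnni2, at 12.9 to 14.6 CPM in structured and 9.72 to 15.7 CPM in smooth libraries. Acta1, Ckm, Tnnt3 and Actn3 were lower in every structured library than in any smooth one, and the other muscle markers overlapped. Of 7 adipocyte markers, Adipoq, Plin1 and Cfd were at 0 in structured 3 and structured 4 and above 0 in the other 6 libraries, and none of the 5 tested passed. The adipocyte sum was 35.3 to 57.7 CPM in structured and 50.7 to 55.3 CPM in smooth libraries. Most of it was Fabp4, at 35.2 to 53.7 CPM in structured and 45.8 to 50.3 CPM in smooth libraries. Each other adipocyte marker was at most 2.39 CPM in any library, so the sum mainly gives the level of Fabp4. The part of these transcripts in the results below was not tested, beyond the values given with and without those libraries. Every library is labelled as RAW264.7 with no other cell type named, and where the transcripts of other cell types came from was not tested. In bulk RNA, fewer cells of a type and less RNA per cell cannot be told apart.

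Across the 32 genes, 5 rose on structured PEEK, 4 of them sterol pathway enzymes (Acat2, Fdps, Cyp51 and Ebp) and the last the sterol carrier gene Stard4, and none fell. Of all tested genes, 1.01% rose and 2.75% fell in the same fit. The changes were small: the log2 fold change, structured minus smooth, had a median of 0.10 over the 32 genes and 0.01 over all tested genes, and 26 of the 32 were positive, as were 51.2% of all tested genes. At an unadjusted p under 0.05, 10 of the genes were higher and 3 were lower, against 8.14% and 10.6% of all tested genes, so the lower ones were about as frequent as among all genes. All structured libraries lay above all smooth libraries for 8 of the 32 genes, and below them for none, against 5.19% and 7.03% of all tested genes. DESeq2 called 8 of the genes higher, against 3.45% of all genes, and 1 lower (Fasn), against 5.5% of all genes.

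**Figure D1:**
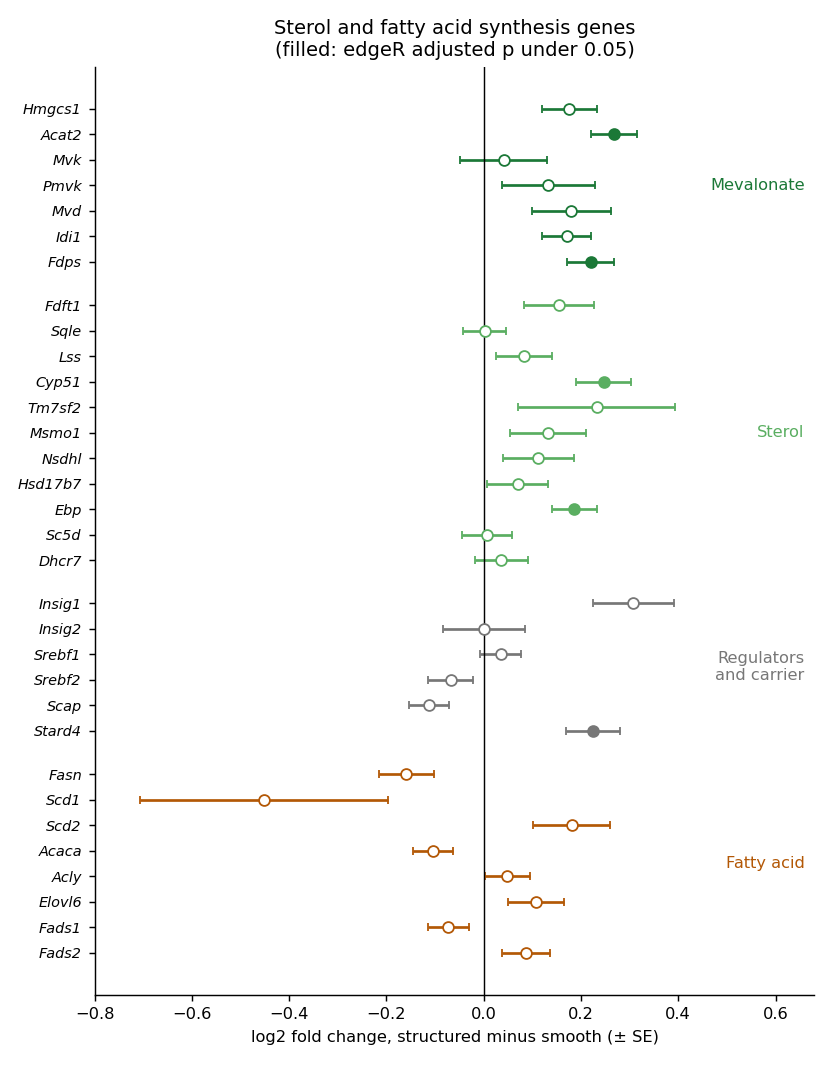
Log2 fold change (structured minus smooth, ± SE from edgeR, 4 libraries per group) of the 32 genes in order of pathway role, with filled points for an adjusted p under 0.05. All 18 mevalonate and sterol enzymes lie at or right of 0, up to 0.27 for Acat2, while the 8 fatty acid enzymes spread from −0.45 for Scd1 to 0.18 for Scd2.

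All 7 mevalonate enzymes had positive values in the edgeR fit, Mvk keeping its sign in 19 of 23 alternative settings, with a median log2 fold change of 0.18, and 2 of them rose. Acat2, the cytosolic thiolase that opens the pathway by joining 2 molecules of acetyl-CoA (chromosome 17, 12942890 to 12960747), had 85.0, 88.5, 79.5 and 80.3 CPM in structured libraries 1 to 4, against 67.8, 73.01, 68.2 and 67.9 CPM in smooth libraries 1 to 4. The lowest structured library stood above the highest smooth one. It rose by 0.27 ± 0.05 on the log2 scale (SE, n = 4 per group, edgeR adjusted p = 0.0163), or 20.3%. It passed in 21 of the 23 settings, and missed without structured 2 (adjusted p = 0.0547) and without smooth 3 (0.0541), over a range of 1.98e-05 to 0.0547. Acat2 shares 40.7% of its longest transcript with Acat3 and 11.0% with Tcp1 in stretches of 75 bases, and how such reads were assigned is not known here. Acat3 averaged 6.29 CPM in structured and 4.42 CPM in smooth libraries, and Tcp1 averaged 715 CPM in structured and 686 CPM in smooth libraries.

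Fdps, farnesyl diphosphate synthase, which makes the last intermediate common to sterols and the other isoprenoids (chromosome 3, 89093588 to 89101959), had 253, 267, 249 and 249.5 CPM in structured libraries, against 207, 229.7, 232 and 206 CPM in smooth libraries. The groups did not overlap, with structured 2 the highest. Fdps rose by 0.22 ± 0.05 (SE, n = 4 per group, edgeR adjusted p = 0.0336), and it was the most abundant of the 7 per length, at 56.8 ± 1.495 FPKM in structured and 48.6 ± 2.93 FPKM in smooth libraries (SD, n = 4 each). It kept its call in 13 of 23 settings, over adjusted p-values of 0.000142 to 0.128. Without structured 1, structured 2, structured 4, smooth 1 or smooth 4 it missed the threshold, at 0.0668, 0.112, 0.0815, 0.0634 and 0.0812. A predicted gene inside the same locus, Gm43738, shares 9.24% of the Fdps transcript and averaged 0.833 CPM in structured and 0.116 CPM in smooth libraries. Gm3571 shares 2.4% and averaged 17.3 CPM in structured and 14.8 CPM in smooth libraries (log2 difference 0.23 ± 0.07, edgeR adjusted p = 0.0831).

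The other 5 mevalonate enzymes did not pass. Hmgcs1, the cytosolic HMG-CoA synthase, averaged 79.0 ± 2.98 CPM in structured and 69.95 ± 5.30 CPM in smooth libraries (SD, n = 4 each), with a log2 difference of 0.18 ± 0.06 (edgeR adjusted p = 0.114). Idi1, the isopentenyl diphosphate isomerase, averaged 93.0 ± 3.75 CPM in structured and 82.6 ± 5.10 CPM in smooth libraries, with a log2 difference of 0.17 ± 0.05 (edgeR adjusted p = 0.0898). For both genes every structured library was above every smooth library, and both passed under DESeq2, at adjusted p-values of 0.0258 and 0.0155. The decarboxylase gene Mvd had a log2 difference of 0.18 ± 0.08, and the kinase genes Pmvk and Mvk had 0.13 ± 0.10 and 0.04 ± 0.09, with overlapping groups for all 3. A predicted gene, Gm13502, shares 20.7% of the Idi1 transcript and averaged 5.62 CPM in structured and 4.88 CPM in smooth libraries.

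**Figure D2:**
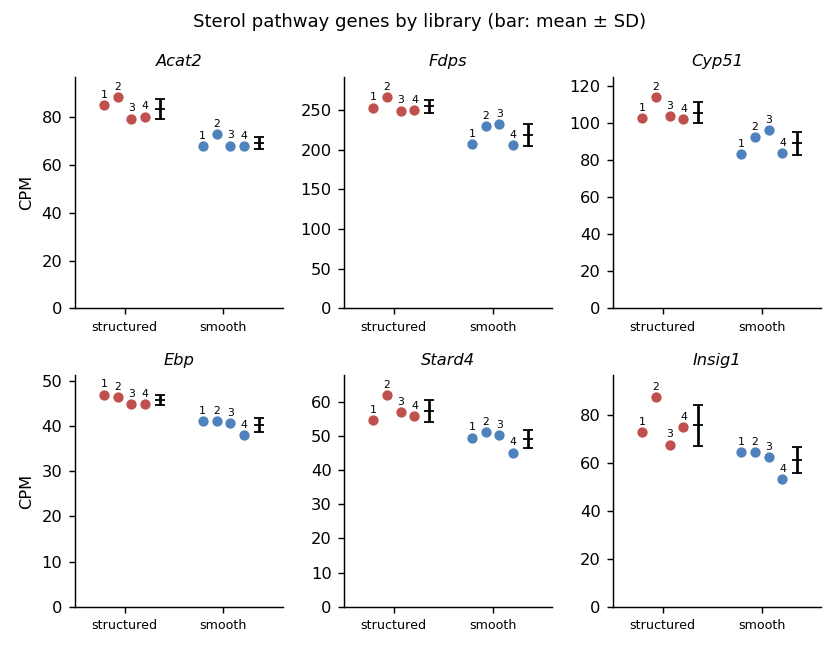
CPM per library (numbers give the library; bars give the mean ± SD of 4 libraries) for the 5 genes that rose and for Insig1. In each of the 6 panels the structured libraries, on the left, lie above all smooth libraries, and structured 2 is the highest in all but Ebp.

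Of the 11 enzymes after farnesyl diphosphate, 2 rose, and all 11 values were positive, with a median of 0.11. Cyp51, the lanosterol demethylase (chromosome 5, 4081145 to 4104746), had 103, 114, 104 and 102 CPM in structured libraries, against 83.6, 92.7, 96.4 and 83.9 CPM in smooth libraries. All structured values were above the smooth ones, and structured 2 stood apart at the top. Cyp51 rose by 0.25 ± 0.06 (SE, n = 4 per group, edgeR adjusted p = 0.0379), or 18.7%. It passed in 10 of 23 settings, over adjusted p-values of 0.000548 to 0.122, and of the 8 fits without 1 library it passed only without smooth 3 (0.0492), the others giving 0.0550 to 0.115. Cyp51 and Akap9 overlap by 166 bases on opposite strands, and Akap9 averaged 105 CPM in structured and 97.5 CPM in smooth libraries (log2 difference 0.10 ± 0.04, edgeR adjusted p = 0.139).

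Ebp, the sterol isomerase of the later steps (chromosome X, 8185329 to 8193512), had 46.9, 46.4, 44.75 and 44.8 CPM in structured libraries, against 41.0, 41.0, 40.7 and 37.9 CPM in smooth libraries. The groups were separate and narrow, apart from the lower smooth 4. Ebp rose by 0.19 ± 0.05 (SE, n = 4 per group, edgeR adjusted p = 0.0490), or 13.8%. It was called in 5 of 23 settings, over 0.00907 to 0.135, and in none of the 8 fits that left out 1 library (0.0644 to 0.131). With the trend on GC content and transcript length removed, 3 of the 32 genes rose (Acat2, Cyp51 and Fdps), against 1.32% of all genes, and Ebp had a difference of 0.14 (edgeR adjusted p = 0.123).

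Sqle, squalene epoxidase, a rate-limiting enzyme of cholesterol synthesis and the most abundant of these 11 per length at 23.6 ± 0.971 FPKM in structured and 23.5 ± 1.075 FPKM in smooth libraries (SD, n = 4 each), showed no such difference. Its counts were 138, 142, 145 and 132 CPM in structured libraries, against 135, 145, 145 and 132 CPM in smooth libraries. The groups covered the same range, and the log2 difference was 0.00 ± 0.04 (edgeR adjusted p = 0.989). Sc5d, a sterol desaturase, and Dhcr7, a reductase of the last steps, were also near 0, at 0.01 ± 0.05 and 0.04 ± 0.05. Sqle and Sc5d kept a positive sign in 18 and 19 of the 23 settings.

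The remaining 6 enzymes of this segment had log2 differences between 0.07 and 0.23, and none passed. Fdft1, squalene synthase, had 0.15 ± 0.07, Lss, lanosterol synthase, 0.08 ± 0.06, and Msmo1, the methylsterol monooxygenase, 0.13 ± 0.08. Nsdhl and Hsd17b7, which complete the removal of the methyl groups, had 0.11 ± 0.07 and 0.07 ± 0.06. Tm7sf2, a sterol reductase, was the least abundant of the 32 genes at 0.683 ± 0.0809 FPKM in structured and 0.577 ± 0.0782 FPKM in smooth libraries, and its difference of 0.23 ± 0.16 was the least precise of the 18. Fdft1 overlaps the far more abundant Ctsb by 774 bases on the opposite strand, and Ctsb averaged 2480 CPM in structured and 2690 CPM in smooth libraries. The libraries were stranded, but the strand setting of the counting is not given in the sources used here. How reads of the overlap were assigned is therefore not known.

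Among the 6 regulators and carriers, 1 rose, none fell, and the median log2 difference was 0.02. This median was unsteady, at −0.01 without structured 1, between 0.0007 and 0.0027 without structured 3, smooth 2 or smooth 4, 0.07 without structured 4, 0.05 without smooth 3 and 0.08 after the GC and length trend was removed. At an unadjusted p under 0.05, Insig1 and Stard4 were higher and Scap was lower. Stard4, a soluble carrier that moves cholesterol between membranes (chromosome 18, 33199355 to 33213862), had 54.55, 61.8, 56.9 and 55.6 CPM in structured libraries, against 49.5, 51.2, 50.2 and 45.1 CPM in smooth libraries. The groups did not overlap. Stard4 rose by 0.22 ± 0.06 (SE, n = 4 per group), and its edgeR adjusted p of 0.04997 lay just inside the threshold. It passed in 7 of 23 settings, over 0.00385 to 0.157, and in none of the 8 fits that left out 1 library (0.0663 to 0.145).

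Insig1, an endoplasmic reticulum anchor of Scap that is itself an SREBP target, had the largest positive value of the 32 genes but did not pass. Its counts were 72.8, 87.5, 67.55 and 74.7 CPM in structured libraries, against 64.4, 64.5, 62.5 and 53.1 CPM in smooth libraries. The groups did not overlap, though structured 3 came close to smooth 1 and 2. The log2 difference was 0.31 ± 0.08 (SE, n = 4 per group, edgeR adjusted p = 0.0655), with 0.23 without structured 2 and 0.25 without smooth 4, and it passed under DESeq2 (0.0020), with counts divided by 4 (0.0493) and without structured 3 (0.0450), over a range of 0.0020 to 0.166.

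Insig2, which shares that role, had 21.6, 19.5, 20.7 and 16.6 CPM in structured libraries, against 19.2, 18.6, 21.45 and 19.2 CPM in smooth libraries, a log2 difference of 0.00 ± 0.08 (edgeR adjusted p = 0.999). Its groups overlapped throughout. Per length, Insig1 was 3.79, 5.04, 3.67 and 5.06 times as high as Insig2 in structured libraries and 3.77, 3.91, 3.28 and 3.11 times in smooth libraries, so the ratios overlapped as well.

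The genes of the SREBP proteins and of their escort did not pass in either direction. Srebf2, the most abundant of the 6 regulators per length at 32.4 ± 0.691 FPKM in structured and 33.9 ± 2.11 FPKM in smooth libraries, had 246, 247, 255 and 245 CPM in structured libraries, against 251, 271, 278 and 241 CPM in smooth libraries. Its log2 difference was −0.07 ± 0.05 (SE, n = 4 per group, edgeR adjusted p = 0.499), and the structured libraries lay within the smooth range. Removing the GC and length trend gave a value of 0.04 for Srebf2.

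Srebf1 had 98.5, 98.55, 98.2 and 92.1 CPM in structured libraries, against 96.5, 92.7, 98.6 and 90.1 CPM in smooth libraries. These ranges nearly coincided, with a log2 difference of 0.04 ± 0.04 (edgeR adjusted p = 0.740). Srebf1 stood at 0.510, 0.509, 0.490 and 0.479 of the Srebf2 level per length in structured libraries, against 0.490, 0.437, 0.453 and 0.476 in smooth libraries, and smooth 1 reached the level of structured 3 and 4. Gene-level counts do not separate the SREBP-1a and SREBP-1c transcripts.

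Scap had 101, 109.8, 106 and 99.7 CPM in structured libraries, against 112, 116, 109.7 and 114 CPM in smooth libraries. Structured 2 reached the lowest smooth library and the other 3 structured libraries lay below all smooth ones. The log2 difference was −0.11 ± 0.04 (SE, n = 4 per group, edgeR adjusted p = 0.153), and it was −0.02 (adjusted p = 0.847) with the GC and length trend removed. The Scap transcript has a GC content of 59.1%, against a median of 49.5% over all tested genes.

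The 8 fatty acid enzymes showed no shared direction: 4 values were positive and 4 negative, the median log2 difference was −0.01, and edgeR called none. At an unadjusted p under 0.05, Scd2 was higher and Fasn and Acaca were lower, where 8.14% and 10.6% of all tested genes were. DESeq2 called Fasn lower (adjusted p = 0.0281), as it did 5.5% of all genes, and limma-voom called none of the 8. Acly, the ATP citrate lyase that supplies cytosolic acetyl-CoA to both branches, averaged 361 ± 6.09 CPM in structured and 349 ± 23.0 CPM in smooth libraries (SD, n = 4 each), a log2 difference of 0.05 ± 0.05. Acaca, the acetyl-CoA carboxylase that commits carbon to fatty acids, averaged 102 ± 3.84 CPM in structured and 109.6 ± 3.69 CPM in smooth libraries, a log2 difference of −0.10 ± 0.04 (edgeR adjusted p = 0.189). A predicted gene, Gm5182, shares 47.4% of the Acaca transcript and averaged 14.5 CPM in both groups.

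Fasn, fatty acid synthase, with the highest CPM of the 32 genes (chromosome 11, 120805846 to 120824547), had 613, 574, 509 and 536 CPM in structured libraries, against 613, 623, 664 and 592 CPM in smooth libraries. Structured 1 lay among the smooth libraries and the other 3 lay below them. The log2 difference was −0.16 ± 0.06 (SE, n = 4 per group, edgeR adjusted p = 0.147). The Fasn transcript has a GC content of 57.9%, and removing the GC and length trend gave −0.0014 (adjusted p = 0.994), while Acaca then had −0.01. Over all 23 settings the adjusted p of Fasn ran from 0.0281 to 0.994.

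Scd1 and Scd2 encode stearoyl-CoA desaturases, which make monounsaturated fatty acids, and lie near each other on chromosome 19 (44394455 to 44407709 and 44293674 to 44306864). Scd1 had 69.0, 57.2, 23.8 and 40.7 CPM in structured libraries, against 49.9, 77.9, 67.5 and 65.45 CPM in smooth libraries. Structured 3 and structured 4 were the lowest and smooth 1 was the lowest smooth library, the 3 libraries with the highest hepatocyte markers. The log2 difference was −0.45 ± 0.26 (SE, n = 4 per group, edgeR adjusted p = 0.387), the widest error of the 32 genes. Structured 3 and 4 are also the libraries in which Adipoq, Plin1 and Cfd were at 0. Without both of them the difference for Scd1 was −0.04 (adjusted p = 0.938), and without all 3 hepatocyte-high libraries it was −0.16 (0.482), over a range of 0.178 to 0.938 in all settings. These libraries were left out after their values had been seen, and what sets the Scd1 level in them was not tested.

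Scd2 had 316, 346, 301.5 and 299 CPM in structured libraries, against 274, 288, 316 and 235.5 CPM in smooth libraries. Smooth 3 overlapped the structured range and the other smooth libraries lay below it. The log2 difference was 0.18 ± 0.08 (SE, n = 4 per group, edgeR adjusted p = 0.241). Per length, Scd1 stood at 0.244, 0.185, 0.088 and 0.152 of Scd2 in structured libraries, against 0.204, 0.302, 0.239 and 0.310 in smooth libraries, and structured 1 lay above smooth 1 and smooth 3. The 2 genes share 1.66% of the Scd1 transcript in exact stretches of 75 bases.

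Neither desaturase of polyunsaturated fatty acids passed. Fads2, the fatty acid gene of highest level per length at 79.2 ± 1.081 FPKM in structured and 74.3 ± 6.54 FPKM in smooth libraries, had 282, 279, 274 and 277 CPM in structured libraries, against 287.5, 263, 255 and 241 CPM in smooth libraries. The structured libraries lay inside the wider smooth range, and the log2 difference was 0.09 ± 0.05 (SE, n = 4 per group, edgeR adjusted p = 0.383).

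Fads1, its neighbour on chromosome 19, had 217, 217.5, 229 and 221 CPM in structured libraries, against 217, 234, 245 and 233 CPM in smooth libraries. Smooth 1 matched structured 1, and the log2 difference was −0.07 ± 0.04 (edgeR adjusted p = 0.406). Per length, Fads1 stood at 0.526, 0.534, 0.571 and 0.546 of Fads2 in structured libraries, against 0.517, 0.610, 0.659 and 0.662 in smooth libraries, and smooth 1 was below every structured library. Elovl6, the elongase of saturated chains, averaged 66.7 ± 4.82 CPM in structured and 62.0 ± 2.95 CPM in smooth libraries, a log2 difference of 0.11 ± 0.06 (edgeR adjusted p = 0.359).

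**Figure D3:**
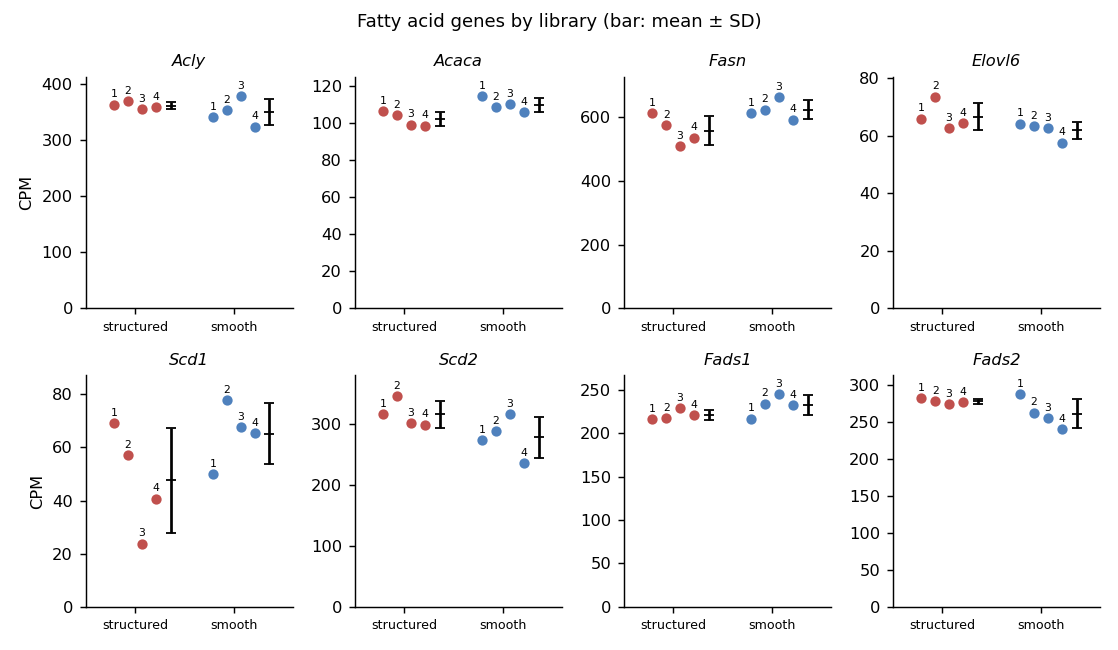
CPM per library (numbers give the library; bars give the mean ± SD of 4 libraries) for the 8 fatty acid enzymes, structured on the left. Scd1 has the widest spread relative to its level, from 23.8 to 69.0 CPM in structured libraries, and the groups overlap in every panel.

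Set side by side, the 18 sterol pathway enzymes had a median log2 difference of 0.14 with values from 0.00 to 0.27, and the 8 fatty acid enzymes a median of −0.01 with values from −0.45 to 0.18, which puts the medians 0.16 apart. The medians were 0.09 apart after the GC and length trend was removed, where the fatty acid median was 0.05, and 0.09 apart without structured 2. The sterol enzymes gave 4 that rose and 6 without overlap between the groups, and the fatty acid enzymes gave none of either, against the shares of all tested genes above. No test was made of either list or of their difference, since the genes were chosen with results known.

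The same contrast was followed library by library, as the mean over each list of the log2 CPM difference from the smooth mean. The sterol enzymes stood at 0.095, 0.216, 0.133 and 0.103 in structured libraries 1 to 4, against −0.026, 0.042, 0.068 and −0.084 in smooth libraries 1 to 4, with no overlap. The fatty acid enzymes stood at 0.049, 0.037, −0.207 and −0.101 in structured libraries, against −0.035, 0.049, 0.067 and −0.082 in smooth libraries, with overlap. In smooth libraries, which are centred on 0, both lists had similar values: their difference, sterol minus fatty acid, was 0.009, −0.007, 0.001 and −0.003. In structured libraries that difference was 0.047, 0.179, 0.340 and 0.204.

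Scd1 carried part of this difference. Without it the fatty acid enzymes stood at 0.041, 0.066, −0.031 and −0.022 in structured libraries, against 0.013, 0.017, 0.067 and −0.097 in smooth libraries. The sterol minus fatty acid difference was then 0.054, 0.15, 0.164 and 0.124 in structured libraries, against −0.039, 0.025, 0.001 and 0.012 in smooth libraries, still without overlap. Leaving out structured 3 and 4 gave medians of 0.18 for the sterol enzymes and 0.02 for the fatty acid enzymes, with Acat2 the 1 gene called. Leaving out the 3 hepatocyte-high libraries gave 0.17 for the sterol enzymes and 0.01 for the fatty acid enzymes, again with Acat2 alone called. Leaving out structured 2 gave the lowest sterol median, 0.07, and no gene of the 32 passed.

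**Figure D4:**
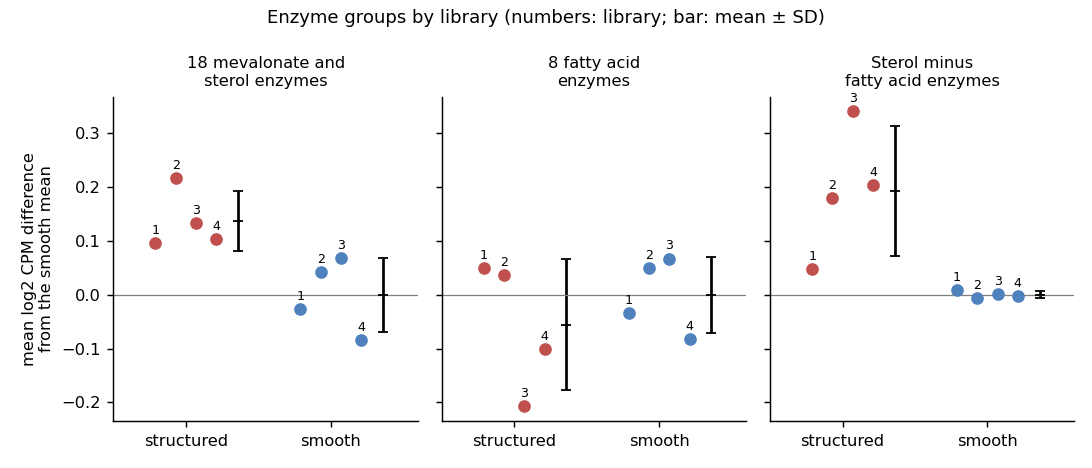
Mean log2 CPM difference from the smooth mean (y axis) per library for the 18 sterol pathway enzymes, the 8 fatty acid enzymes, and the first minus the second; bars give the mean ± SD of 4 libraries. The sterol enzymes are higher in all structured libraries, and the difference lies at 0.047 to 0.340 in structured libraries and near 0 in smooth libraries.

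In summed counts, which weight abundant genes, the sterol enzymes took 1339, 1458, 1351 and 1332 CPM in structured libraries, against 1197, 1280, 1303 and 1176 CPM in smooth libraries. The fatty acid enzymes took 2032, 2020, 1854 and 1894 CPM in structured libraries, against 1960, 2011, 2099 and 1854 CPM in smooth libraries. Only the sterol sum separated the groups. The mevalonate enzymes carried most of that separation, at 607.8 to 649 CPM in structured and 506 to 569 CPM in smooth libraries, while the enzymes after farnesyl diphosphate overlapped at 722 to 809 CPM in structured and 670.4 to 742.5 CPM in smooth libraries.

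Levels per length spanned from below 1 FPKM for Tm7sf2 to 79.2 FPKM for Fads2 in structured libraries. Fads2, Acly (64.2 ± 0.816 FPKM in structured and 61.8 ± 3.96 FPKM in smooth libraries) and Fdps were the most abundant in structured libraries, followed by Scd2, Fasn and Fads1. Acaca, at 5.60 ± 0.2096 FPKM in structured and 6.001 ± 0.276 FPKM in smooth libraries, and Insig2, at 5.29 ± 0.595 FPKM in structured and 5.27 ± 0.323 FPKM in smooth libraries, were among the lowest. The differences between surfaces were small beside these differences between genes.

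**Figure D5:**
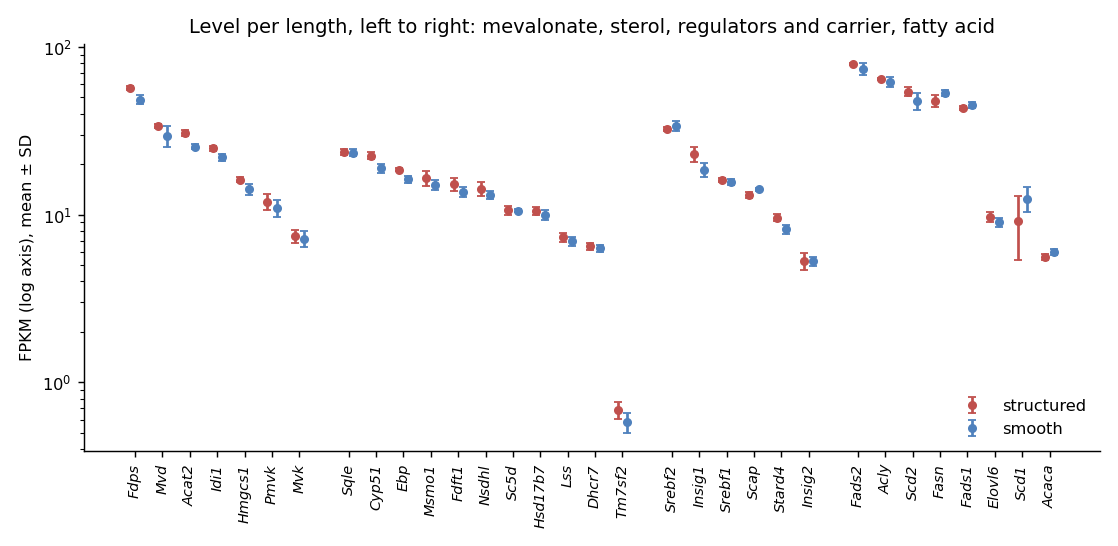
Mean FPKM ± SD of 4 libraries (log axis) for the 32 genes, ordered by level within each role, structured points left of smooth points. The level runs from 0.683 FPKM for Tm7sf2 to 79.2 FPKM for Fads2 in structured libraries, and the paired points of most genes lie close together.

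Around these genes, 47 others of the same pathways were listed, of which 45 had counts high enough to be tested. Of the 45, 1 rose and 1 fell, close to the 1.01% and 2.75% of all tested genes, and the median log2 difference was 0.00. At an unadjusted edgeR p under 0.05, 9 of the 45 were higher and 5 were lower, against 8.14% and 10.6% of all tested genes. All structured libraries lay above all smooth libraries for 7 of the 45 and below them for 4, against 5.19% and 7.03% of all tested genes. Soat1, which esterifies cholesterol for storage, had 227, 239, 264 and 249 CPM in structured libraries, against 268, 297.5, 312 and 306 CPM in smooth libraries. Every structured library was below every smooth one, and Soat1 fell by 0.28 ± 0.06 on the log2 scale (SE, n = 4 per group, edgeR adjusted p = 0.0270). It passed in 10 of 23 settings, over adjusted p-values of 3.23e-05 to 0.0858. It missed with no filter (0.0710), on FPKM (0.0508 to 0.0563), after GC and length trend removal (0.0579), with the hepatocyte covariate (0.0769) and without structured 3 and 4 (0.0622). Of the fits without 1 library it passed without structured 3 and without smooth 1 and had 0.0651 to 0.0858 in the others.

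Mcat, the malonyl transferase of mitochondrial fatty acid synthesis, had 18.45, 18.7, 17.4 and 18.9 CPM in structured libraries, against 14.2, 16.4, 13.85 and 14.8 CPM in smooth libraries. It rose by 0.31 ± 0.07 (SE, n = 4 per group, edgeR adjusted p = 0.0419), without overlap. It also passed in 10 of 23 settings, over 0.00515 to 0.156. It missed with no filter (0.0788), on FPKM with pseudocounts of 0.5 and 1 (0.0503 and 0.0517), with the replicate block (0.0623), with the hepatocyte covariate (0.0781), without the 3 hepatocyte-high libraries (0.156) and without structured 3 and 4 (0.129). Of the fits without 1 library it passed without structured 3 and without smooth 2 and had 0.0712 to 0.128 in the others. The 10 other sterol and isoprenoid genes had a median of 0.03 and the 22 other fatty acid genes tested a median of −0.01.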

How the data were processed

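Gene expression was measured by RNA-seq in 8 libraries. Per the labels' protocols, poly(A) RNA was made into dUTP-stranded libraries with molecular identifiers and sequenced as read pairs of 150 bases. Per the submitters' processing notes, cutadapt 1.9 and HISAT2 2.2.1 were used. Not given in the sources used here: counter, strand setting, use of the identifiers, and build. Each gene and library has an estimated count, a whole number as deposited by the authors, and an FPKM value that the authors normalized to length and depth, per the file headers. Of the 26848 genes, 26779 are in GENCODE release M21, 23236 of them (25 of the 32 members) with identical coordinates. Positions are printed as deposited.

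Counts were tested with edgeR 4.0.16 (R 4.3.3): low counts were removed by filterByExpr (minimum 10), libraries scaled by TMM, and structured compared with smooth by the quasi-likelihood test (two-sided), with Benjamini-Hochberg adjustment over 16006 genes at 0.05. The SE is the fold change divided by the square root of F. The pipeline was tested on simulated data. Alternatives used limma 3.58.1 and DESeq2 1.42.0, other filters and scalings, a replicate block, log2 FPKM (pseudocounts 0.5, 0.1 and 1), counts divided by 4, GC and length trend removal, a hepatocyte marker covariate, and each library left out. Leaving out structured 3 and 4, or the 3 libraries with the highest hepatocyte markers, was chosen after seeing the data. Motif counts and shared stretches of 75 bases came from RefSeq promoters and M21 transcripts.

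The genes and lists were chosen with earlier results of these data known. All 32 genes are described. Full values are given for genes past the threshold, for the most abundant per length of each role group, for both genes of 4 pairs of relatives and for the 3 most negative values. The outside genes named are those past the threshold. Nothing says that libraries came from separate cultures beyond the titles' biological replicate numbers, so p-values measure the spread between these libraries. The number of libraries and the 64479829 to 73098735 count units per library limit the precision, and PCR copies were not separated here.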

Additional observations from a re-analysis of the deposited data

Results flagged for a closer look

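Over the 32 genes and the list means, 70 groups of 4 libraries were examined for 1 library far from the other 3 (a gap over Dixon's critical share of the range), and 6 stood out. Chance flags about 1 in 20 such groups. Structured 2 was far above the other structured libraries for Cyp51 at 114.1 CPM and for Msmo1 at 126.8 CPM, and structured 4 was far below them for Srebf1 at 92.06 CPM. Smooth 2 was far above the other smooth libraries for Acat2 at 73.01 CPM, smooth 3 for Nsdhl at 43.78 CPM, and smooth 4 was far below them for Ebp at 37.91 CPM. In Acat2 the groups did not overlap, although smooth 2 lay toward the structured libraries, and the gene passed without it (edgeR adjusted p = 0.0294). Groups did not overlap in Cyp51 and Ebp either, but there the flagged library lay away from the other surface, which cannot cause overlap. Neither Cyp51 nor Ebp passed without its flagged library (edgeR adjusted p = 0.115 and 0.108). That loss was not particular to the flagged library. Of the 8 fits without 1 library, Ebp passed in none and Cyp51 only without smooth 3.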

How the results depend on the processing

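Of the 32 genes, 5 rose and none fell. The count of rises was 1 with no filter on low counts, 1, 2 and 1 by limma on FPKM with pseudocounts of 0.5, 0.1 and 1, 3 after GC and length trend removal, 3 with the hepatocyte covariate, 1 without the 3 hepatocyte-high libraries, 1 without structured 3 and 4, and 8 (with 1 fall) by DESeq2. With 1 library left out it ran from 0 to 3. Some of these settings had fewer libraries or more genes tested, and the cause of the shifts was not tested. Over all genes, 161 rose and 440 fell; the counts were 47 and 142 with no filter, 553 and 880 by DESeq2, 67 and 124, 89 and 153, and 65 and 122 on FPKM, 212 and 218 without the GC and length trend, 124 and 205 with the covariate, 62 and 124 without the 3 libraries, and 24 and 53 without structured 3 and 4. With 1 library left out they ran from 21 to 170 and from 67 to 427. The sterol median ran from 0.0736 (without structured 2) to 0.175 with 1 library left out and from 0.13 to 0.18 otherwise, and the fatty acid median from −0.03 to 0.02 and from −0.01 to 0.05. The difference of the medians ran from 0.09 to 0.18 and from 0.09 to 0.17. The regulator median moved to 0.0804 without the GC and length trend. The 5 genes that rose gave 115 values under the alternatives, of which 56 kept the call and 59 lost it; the other 27 genes gained one 6 times. Same-numbered libraries did not all deviate together (correlations −0.033, 0.335, 0.110 and −0.076), and structured 1 and 4 did not correlate best with their own number, so the numbers are not taken as pairs. Of the 45 outside genes, DESeq2 called 6 higher and 4 lower (3.45% and 5.5% of all genes), against 1 and 1 by edgeR. With the library number as a replicate block, 4 of the 32 genes rose, without Ebp, and 125 of all genes rose and 374 fell. Differences below about 0.1 on the log2 scale lay within 2 SE for most of these genes.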
